A study of Mus musculus with 2 samples.

Results

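The transcripts described here encode hnRNPs and proteins of small RNA pathways, measured as RNA in vesicles shed by cultured murine CTL. These cytotoxic T lymphocytes are the T cells that destroy infected and tumour cells. The members are 35 named genes, matched by gene symbol with no cut on their values, out of 19316 genes named on the array. The list was drawn up with earlier results of these data known. The members fall into 3 classes. The first, called RNA-sorting here, holds 17 genes (14 hnRNPs, Syncrip, Ybx1 and Ybx3). The second holds 10 genes of miRNA processing and silencing, and the third holds 8 other RNA-binding proteins. Of the 35, 33 had a probe, 31 had a value on both arrays and 21 passed a filter on level, which asked that on 1 array or both a gene lie no lower than the median over measured genes. No probe was named for Hnrnpk or Ssb in the annotation used here. The sequences of the probes were not used here, so none is shown.

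Heterogeneous nuclear ribonucleoproteins (hnRNPs) coat newly made RNA in the nucleus and guide its splicing, export, stability and translation. miRNAs are cut from longer precursors by Drosha with Dgcr8 in the nucleus, exported by Xpo5, cut again by Dicer1 with Tarbp2, and loaded onto Argonaute proteins, which silence matching messages together with Tnrc6a. Hnrnpa2b1, Syncrip and Ybx1 are known for binding certain miRNAs and helping to load them into extracellular vesicles, and Hnrnpa2b1 was described in that role in T cells. For most of the other hnRNPs the class name is only a label. The arrays measured transcripts of these genes inside vesicles and not the proteins or the miRNAs.

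Per the labels, CTL were cultured for 7 days, their medium was passed over a membrane that retains particles above 750 kDa, and the vesicles retained were separated on a DEAE column, a positively charged resin that holds particles with a more negative surface until the salt is raised. Vesicles eluted with 0.3 M NaCl and vesicles eluted with 0.5 M NaCl were each measured on 1 single-colour array labelled with Cy5. Both fractions share the cells, the culture time and the ultrafiltration, as far as the labels say. The sources used here give no mouse strain, no stimulus and no number of pooled preparations. With 1 array per fraction there is no replicate check, no test and no p-value, and each difference is one between these arrays only.

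Both arrays held a value for 16154 of 23473 probes. The median over these shared probes was 32 at 0.3 M and 26 at 0.5 M, and this shift of -0.30 on the log2 scale was taken out by centring. Differences below are log2 intensity at 0.5 M minus 0.3 M after centring, so a positive value means higher at 0.5 M. Intensities are the deposited ones, and since probes differ in brightness they are compared between arrays and not between genes. Of 9 CTL markers 9 had a value on both arrays, and their deposited intensities summed to 8375 at 0.3 M and 7775 at 0.5 M. After centring the 8 kept CTL markers had a median difference of 0.50, against 0.08 for all kept genes, with 5 above 0 and 3 below. Gzmb went from 2493 to 2838, Cd3d from 849 to 990 and Nkg7 from 405 to 548. Cd8b1 (333 to 496) and Cd3g (105 to 162) also had higher deposited intensity at 0.5 M. Lower were Cd8a (3677 to 2463), Ifng (468 to 238) and Prf1 (33 to 26, only -0.04 after centring), while Cd3e was dim at 12 and 14. Among B cell markers Cd79b went from 94 to 328 and Blnk from 26 to 63, while Cd22 went from 225 to 126. Red cell markers summed to 17143 at 0.3 M and 7924 at 0.5 M over 4 of 5 genes measured on both, without Hba-a1. The globins Hba-a2 (12001 to 5681), Hbb-bs (3747 to 1518) and Hbb-bt (1367 to 697) made up nearly all of that sum, while Alas2 read 28 on each array. Myeloid markers summed to 386 and 219 over 5 of 7, without Adgre1 and Itgam. Mrc1 alone, from 259 to 87 (-1.27 after centring), carried that fall. Lyz2 (18 and 18), Csf1r (49 and 50), Cd68 (50 and 53) and Itgax (10 and 11) had nearly equal deposited intensities. After centring these ran from 0.30 (Lyz2) to 0.44 (Itgax). Platelet markers summed to 83 and 59 over 2 of 3, without Itga2b. The part of these other cells in the member differences was not tested.

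The comparison asked whether vesicles that leave the column at different salt carry different amounts of these messages. After centring, member transcripts differed little between these 2 arrays. Of the 21 kept members, 0 were past 2-fold in either direction, against 7.59% of all 7446 kept genes (5.24% higher and 2.35% lower at 0.5 M). Among so few genes a count of 0 is close to that share, and as deposited 1 member (Dicer1) was past 2-fold. A 1.5-fold rule was added after the data were seen. With it, after centring, 1 kept member was lower (Dicer1, which passed the level filter only at 0.3 M) and 0 were higher. Of kept genes 11% were lower and 18.9% higher by that rule. The middle 50% of all kept genes ran from -0.29 to 0.47, and 19 of the 21 members lay inside it, where 50.4% of all kept genes did. With centring Hnrnpf and Dicer1 lay below it and no kept member above. Passing the filter on both arrays were 19 of the 21, and Dicer1 and Drosha passed at 0.3 M alone. With no filter 24 of 31 members lay inside the middle 50% of all measured genes, and 0 were past 2-fold. Of all 13735 measured genes 701 were past 2-fold higher and 380 lower. The SD across the 21 members was 0.29, against 0.56 across all kept genes. An RNA difference between fractions can come from fewer vesicles that carry a message or from fewer copies in each, and these cannot be told apart.

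**Figure D1:**
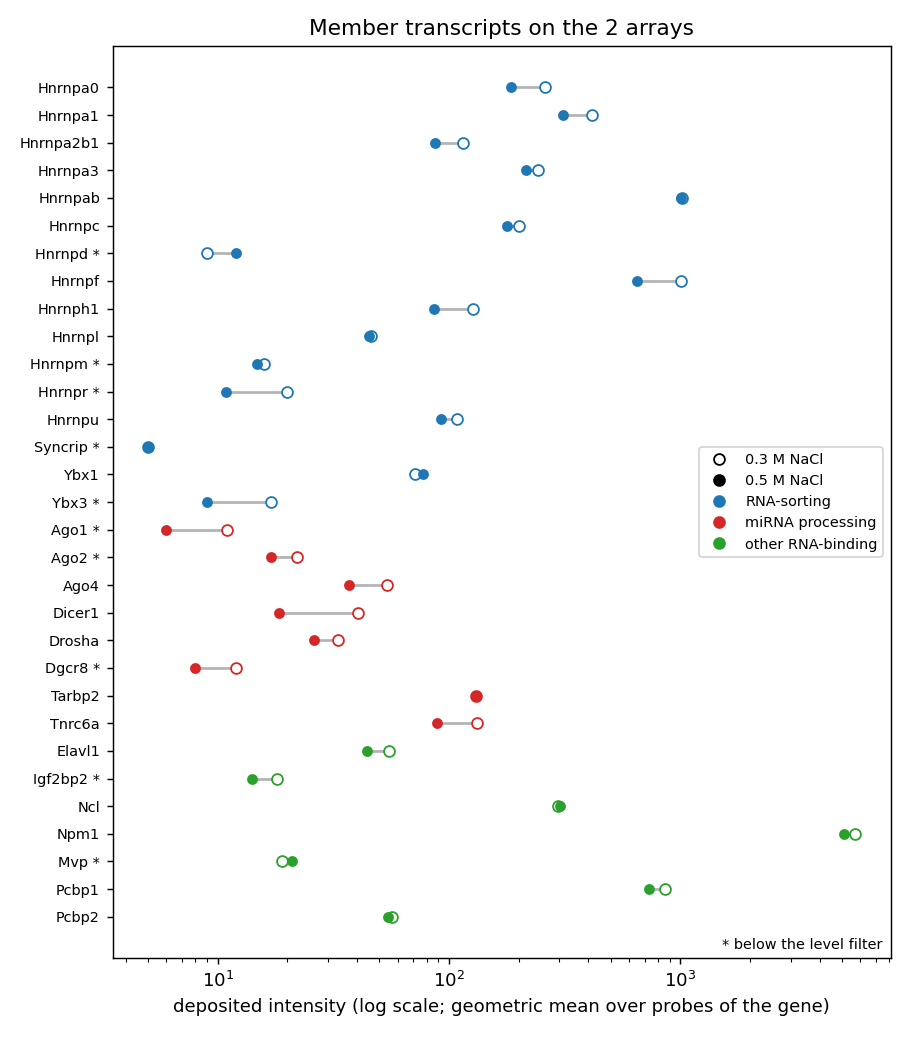
Deposited intensity on a log axis for the 31 members with a value on both arrays, with an open point for 0.3 M, a filled point for 0.5 M and colour for the class; for genes with several probes the point is their geometric mean. Most pairs lie close together, the widest bars belong to Dicer1 and to dim genes, and an asterisk marks the 10 members below the level filter.

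Counts of genes past 2-fold depend on the scaling. Over all kept genes they were 390 higher and 175 lower with centring, 121 and 579 as deposited, 242 and 288 with quantile normalization and 231 and 293 after a loess trend with level was removed. Kept genes as a whole had a median of 0.08 after centring, and of -0.22 in the deposited values, so the members are read against it. Below the median of all kept genes under each of these 4 scalings were 11 of the 21 members (52.4%, against 47% of kept genes), and above it under each were 5 (23.8%, against 47.1%). Those 5 were Hnrnpl, Ybx1, Tarbp2, Ncl and Pcbp2. The other 5 changed sides with the scaling. Centred and deposited values differ by a shift common to all genes, so against this median their sides match by construction. Counted against 0, 10 members lay below under each scaling (47.6%, against 44.1% of kept genes) and 2 above, Ybx1 and Ncl (9.52%, against 33.6%).

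The RNA-sorting class had a median difference of 0.07 over its 11 kept members, close to that of all kept genes (0.08). As deposited it was -0.23, against -0.22 for all kept genes. It lay below all kept genes with quantile normalization (-0.05 against 0) and after loess (-0.10 against -0.001). Its members ran from -0.34 to 0.42, with 6 above 0 and 5 below, and 0 past 2-fold. Of all 7446 kept genes 4159 lay above 0 and 3285 below, and 565 were past 2-fold. Above the median of all kept genes were 5 of the 11 with centring, 2 with quantile normalization and 3 after loess. Ybx1, a cold shock protein that binds messenger RNAs and some small RNAs, went from 71 to 77 (0.42). It was the highest kept member and stayed above 0 under the 4 scalings, at 0.12 as deposited and 0.37 after loess. Hnrnpa2b1, the vesicle sorting protein of T cells, went from 115 to 87 (-0.10). That value rests on 1 probe, annotated to a predicted non-coding record of the gene, and whether it reads the coding message was not checked. Hnrnpa2b1 was at the 36.5th percentile among all kept genes. The values of these sorting proteins, with Ybx1 also on 1 probe, thus lay on opposite sides of 0, both inside the middle 50%. Syncrip, the third of them, read 5 on each array, at the bottom of the intensity range. Rounding of the deposited values to whole numbers alone would let its difference (0.30) lie anywhere from 0.01 to 0.59. Ybx3, a relative of Ybx1, was also dim, at 17 and 9 (-0.62), and was at -0.21 with a pseudocount.

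Among the hnRNPs, 10 of 14 were kept, with a median of -0.02, 5 above 0 and 5 below. The median of all kept genes was exceeded by 4 of the 10 with centring, 1 with quantile normalization and 2 after loess. Hnrnpa1 went from 415 to 312 (-0.12, mean of 2 probes) and Hnrnpa0 from 259 to 185 (-0.19). Hnrnpab went from 1017 to 1006 (0.28). Hnrnpa1 and Hnrnpa0 stayed below 0 under the 4 scalings, as did Hnrnpa2b1. The Hnrnpab difference was -0.02 as deposited, -0.05 with quantile normalization and -0.10 after loess, so it was above 0 only with centring. Hnrnpf and Hnrnph1 are close relatives that bind runs of G. Hnrnpf went from 1010 to 650 (-0.34), the lowest hnRNP among those kept. Hnrnph1 went from 127 to 86 (-0.26). Both were lower at 0.5 M under the 4 scalings, Hnrnpf at -0.69 and Hnrnph1 at -0.33 after loess. Hnrnpc, which binds runs of U, went from 200.1 to 178 (0.13) and Hnrnpu, a scaffold protein of the nucleus, from 108 to 92 (0.07). Hnrnpc was below 0 under the other scalings (-0.17 as deposited) and Hnrnpu as deposited (-0.23). Hnrnpl, a splicing regulator that binds CA repeats and acts on the T cell gene Ptprc, went from 46 to 45 (0.27, and -0.03 as deposited). Hnrnpa3 is described with its probes below.

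Hnrnpd, Hnrnpm and Hnrnpr did not pass the level filter. Hnrnpd, which binds AU-rich elements and promotes decay of cytokine messages, read 9 and 12 (0.71, with a range from rounding of 0.58 to 0.86). Hnrnpm was at 15.9 and 14.8 (0.20) and Hnrnpr, a relative of Syncrip, at 20 and 10.9 (-0.57). Hnrnpd and Hnrnpr, with Ybx3, had the widest differences of the class, and values this dim carry the most rounding.

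The miRNA processing class had a median of -0.25 over its 5 kept members, and 4 of the 5 lay below 0, against 3285 of all 7446 kept genes. Dicer1 and Drosha passed the level filter only through the 0.3 M array, where they were higher, so this median and count partly follow from the filter. Without the filter the class had a median of -0.26 over 8 genes. Dicer1, which cuts precursor miRNAs to their mature length, went from 40.4 to 18.4 (-0.83, 1.78-fold lower after centring). It was at -1.13 as deposited, where it passed 2-fold, and at -0.46 with a pseudocount. Tnrc6a, the GW182 scaffold that joins Argonaute to the machinery of silencing, went from 132 to 89 (-0.27). Ago4 went from 54 to 37 (-0.25) and Drosha from 33 to 26 (-0.04). Tarbp2, the double-stranded RNA-binding partner of Dicer1, read 131 on both arrays (0.30 after centring) and was the only kept gene of the class above 0. It was at 0.20 with quantile normalization and 0.21 after loess. As deposited Tarbp2 was at 0.

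The other Argonautes and the nuclear and export steps were measured near the bottom of the range. Ago2, the Argonaute that can cut its targets, read 22 and 17 (-0.07), and Ago1 read 11 and 6 (-0.57). Dgcr8, the RNA-binding partner of Drosha, read 12 and 8 (-0.29). All 3 had lower deposited intensity at 0.5 M, as did 4800 of all 7446 kept genes, and none passed the filter. Rounding alone would let the Ago2 difference lie anywhere from -0.15 to 0.003. The probes of Ago3 read 11 and 4 at 0.3 M and were empty at 0.5 M. Xpo5, the export receptor of precursor miRNAs, read 12 at 0.3 M and was empty at 0.5 M. Of 5484 probes on the array at or below 12 at 0.3 M, 47.3% were empty at 0.5 M, so an empty cell at this level is common and no fold is given.

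Set side by side, the class medians were 0.07 for RNA-sorting and -0.25 for miRNA processing, a gap of 0.31. That gap was 0.20 with quantile normalization, 0.16 after loess and 0.35 without the level filter. It was -0.03 with a stricter filter at the 75th percentile, which left only Tarbp2 and Tnrc6a of the miRNA class. Single probes of the same gene scattered with an SD of 0.55 over the 358 kept genes with several probes. With 1 array per fraction the gap has no error of its own and is given as a description.

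**Figure D2:**
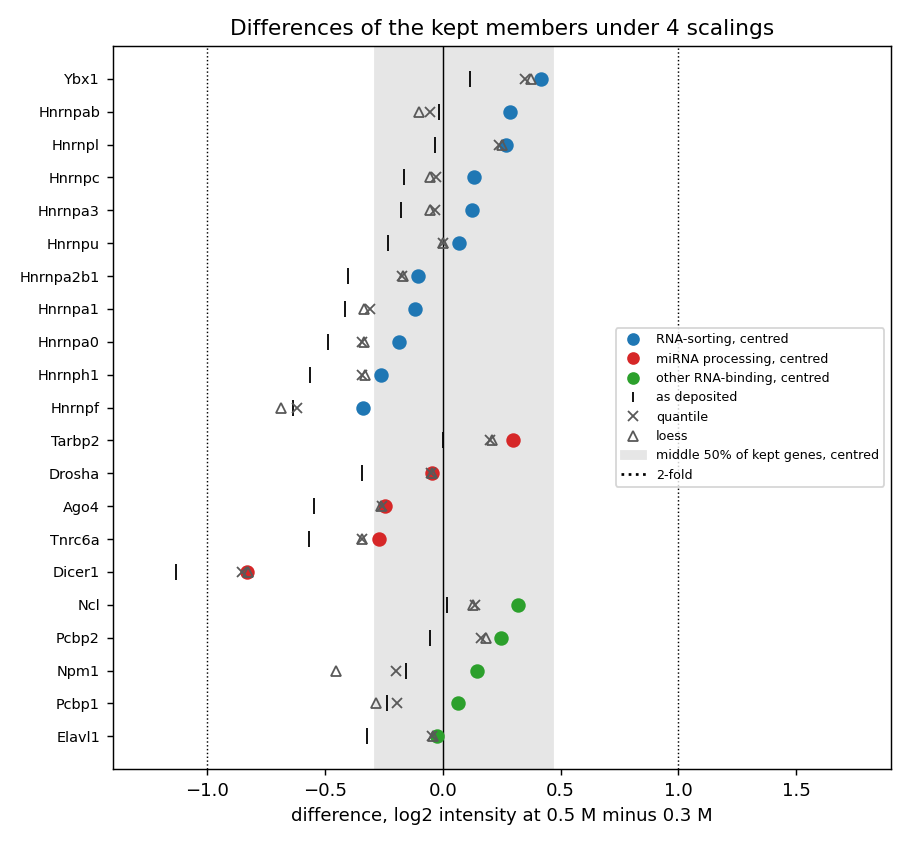
Difference of each of the 21 kept members (log2 intensity at 0.5 M minus 0.3 M), grouped by class, with a filled point for the centred value and a bar, cross and triangle for values as deposited, quantile-normalized and after loess. With centring all but Hnrnpf and Dicer1 lie in the shaded middle 50% of kept genes, and Dicer1 passes the dotted 2-fold line only as deposited (-1.13).

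The other RNA-binding proteins had a median of 0.14 over 5 kept genes, with 4 above 0 and 1 below. Only 3 of the 5 were above the median of all kept genes. The class median was below 0 under the other scalings (-0.16 as deposited, against -0.22 for all kept genes). Ncl (nucleolin), a nucleolar protein of ribosome assembly, went from 297 to 301 (0.32), and was above 0 under the 4 scalings. Npm1 (nucleophosmin), its abundant nucleolar partner, went from 5696 to 5113 (0.14). Npm1 was below 0 under the other scalings, and at -0.45 after loess, which takes out the higher median of bright genes. Pcbp1 and Pcbp2 bind poly(C) and stabilise messages. Pcbp1 went from 860 to 730 (0.06, and -0.28 after loess) and Pcbp2 from 56.7 to 54.6 (0.25, and -0.05 as deposited). Elavl1 (HuR), which stabilises AU-rich messages, went from 55 to 44 (-0.02). Mvp, the major vault protein, which forms most of the shell of vault particles, was dim at 19 and 21 (0.44). Igf2bp2, a binder of messages with N6-methyladenosine, was dim at 18 and 14 (-0.06). Genes such as Npm1 and Hnrnpa1 have processed pseudogenes with near-identical sequence, and whether the probes separate these copies was not checked.

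Level and difference moved together across the array. With kept genes divided into 5 equal bins by level, the median difference was 0.01 in the dimmest bin and 0.32 in the brightest. The brightest bin held 7 members (Hnrnpa1, Hnrnpa3, Hnrnpab, Hnrnpf, Ncl, Npm1 and Pcbp1). Their median was 0.12, and none exceeded the median of that bin, with Ncl equal to it (0.32). In the next bin 7 members had a median of -0.10, against 0.08 for all genes there. The middle bin held 2 members (Ybx1 and Pcbp2) with a median of 0.33 against 0.05, the bin below it 3 at -0.02 against 0.0026, and the dimmest 2 (Dicer1 and Drosha) at -0.44 against 0.01. The 7 brightest members thus lay at or below the median of genes of like brightness.

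**Figure D3:**
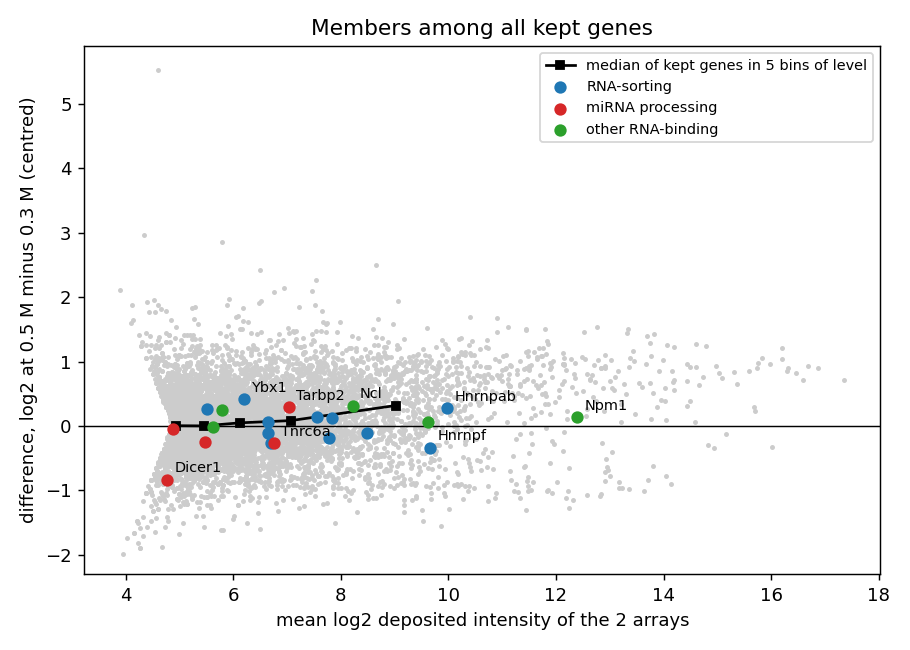
Difference (log2 at 0.5 M minus 0.3 M, centred) against mean log2 deposited intensity for all 7446 kept genes in grey and the 21 members in colour, with black squares for the median of kept genes in each of 5 bins of level. The squares climb from 0.01 to 0.32, while the 7 brightest members lie at or under the last square.

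The one error these data allow is the scatter among probes of a gene, which says nothing of variation between vesicle preparations. Of the 31 measured members 24 rested on 1 probe and 7 on several. Probes lay on opposite sides of 0 for 3 of those 7, and for 49.2% of the 358 kept genes with several probes. Dicer1 had a probe that went from 51 to 34 (-0.29) and a dimmer one that went from 32 to 10 (-1.38). Both are annotated to the same transcript, so the gene value of -0.83 rests mostly on the dimmer probe and is -0.29 with the brighter one alone. That dimmer probe, 2.60-fold lower at 0.5 M, was the only one of 39 member probes past 2-fold, and 0 were at least 2-fold higher, against 2.83% of all named probes at least 2-fold lower and 5.29% at least 2-fold higher. Hnrnpa3 had 3 probes for 1 transcript. They went from 686 to 790 (0.50), from 248 to 246 (0.29) and from 84 to 51 (-0.42), for a gene value of 0.12 that was below 0 under the other scalings. Hnrnpc was split in the same way, with a bright probe from 852 to 965 (0.48) and a dim one from 47 to 33 (-0.21). Pcbp2 had a bright probe from 247 to 199 (-0.01) and a dim one from 13 to 15 (0.51), so its gene value of 0.25 came from the dim probe. The probes of Hnrnpr were at -0.93 and -0.22, both lower. Hnrnpa1 had the closest pair (-0.02 and -0.22), and the brighter of these (-0.02) is annotated to a non-coding record.

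**Figure D4:**
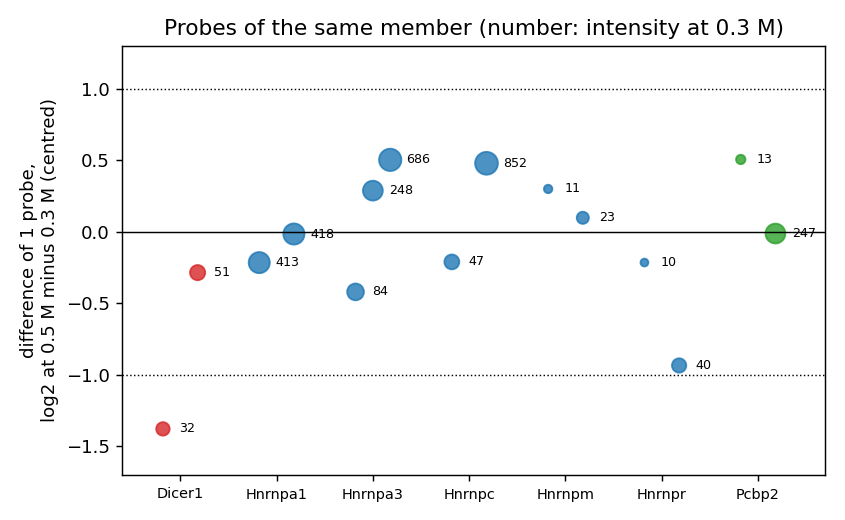
Difference of each probe (log2 at 0.5 M minus 0.3 M, centred) for the 7 members with several probes, with the intensity at 0.3 M printed beside each point and larger points for brighter probes. The probes of Hnrnpa3 span -0.42 to 0.50 and those of Dicer1 -1.38 to -0.29. Gene values of the 21 kept members run from -0.83 (Dicer1) to 0.42 (Ybx1).

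Related genes outside the 35 were taken from lists by function, which were also drawn up with earlier results of these data known. Of 20 further hnRNPs and hnRNP-like proteins, 9 were kept, with a median of -0.32, 6 below 0 and 0 past 2-fold. Of all 7446 kept genes 3285 were below 0 and 565 were past 2-fold. The median of these 9 was below 0 under the 4 scalings, at -0.49 with quantile normalization and after loess. Below the middle 50% of kept genes lay 5 of the 9, against 2 of the 21 members and 1829 of all 7446 kept genes. Lowest were Hnrnpul2, a relative of Hnrnpu (225 to 109, -0.75), Tardbp, which encodes TDP-43 (764 to 416, -0.58), and Ptbp3 (337 to 185, -0.57). On the other side stood Ptbp1, the main pyrimidine tract splicing repressor (341 to 460, 0.73), and Ewsr1 (0.42). The paralogs Ptbp1 and Ptbp3 lay on opposite sides of 0.

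Of 29 further small RNA pathway genes 14 were kept, with a median of -0.07, 8 below 0, 6 above and 0 past 2-fold. Of all 7446 kept genes 3285 were below 0, 4159 above and 7.59% past 2-fold, so a count of 0 in 14 is close to that share. Above the median of all kept genes were 5 of the 14. Prkra, known as PACT and like Tarbp2 a partner of Dicer1, was the highest (26 to 39, 0.88). It passed the filter only through the 0.5 M array, where it was higher. Lowest were Fxr1, a relative of the fragile X protein (104 to 47, -0.85), and Tsnax, which with Tsn clears the passenger strand (66 to 31, -0.79). Messenger RNA and vault binding partners had 9 of 26 kept and a median of 0.05, with the nucleolar methyltransferase Fbl (1347 to 1747, 0.67) against the stress granule protein G3bp1 (879 to 472, -0.60). Of 8 genes of SUMO conjugation, the modification reported to control the miRNA binding of Hnrnpa2b1, 3 were kept. These were Sae1 (1097 to 1206, 0.44), Sumo2 (848 to 625, -0.14) and Sumo3 (-0.19).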

How the data were processed

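RNA of 2 vesicle fractions was measured on 1 array each. The deposited table gives an unlogged intensity per probe, in whole numbers. How the authors scanned, background-corrected and normalized the arrays is not stated in the sources used here, although both deposited columns have a median intensity of 25 over their own probes. Of 23473 probes, 20690 carried 1 gene symbol, 0 several and 2783 none. Symbols were updated through a RefSeq gene table. Intensities were log2-transformed and each array was centred on its median over shared probes. Probes with a value on both arrays were averaged per gene, and a gene was kept if on 1 array or both it was no lower than the median over measured genes (7446 of 13735). No genes were tested, since there is 1 array per fraction, and this small number of arrays limits the precision. The size rule was 2-fold. The loess span was 0.3 and the pseudocount 16. The code was tested on simulated data. Named genes were all 35 members, cell type markers and, per related list, up to 3 kept genes at each end of the ranked differences. Ptprc is named as background only. Members and lists were chosen with earlier results of these data known. A comparison with protein length was not run, since protein sequences were not used here. Python 3.11.15, pandas 2.3.3 and statsmodels 0.14.6 were used. The B cell marker list is reported in part.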

Additional observations from a re-analysis of the deposited data

How the results depend on the processing

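Member differences are small next to the scatter between probes, so the scaling decides many signs. As deposited, the medians were -0.23 for RNA-sorting, -0.55 for miRNA processing, -0.16 for other RNA-binding, -0.32 for hnRNPs and -0.24 for all members, and 1 member (Dicer1) was at least 2-fold lower. After loess the medians were -0.10 for RNA-sorting and -0.10 for all members, and Npm1 moved to -0.45. The stricter filter put the miRNA processing median at 0.015, over 2 genes, and the gap between classes at -0.033. For all kept genes, those at least 2-fold higher and lower at 0.5 M numbered 390 and 175, against 121 and 579 as deposited, 242 and 288 with quantile normalization, 231 and 293 after loess, 701 and 380 without the filter and 157 and 98 with a pseudocount. The stricter filter left 83 lower. Inside the middle 50% of kept genes lay 17 of 21 members after loess and 17 of 21 with a pseudocount. The count was 12 of 15 with the stricter filter and 18 of 22 with the brightest probe (8 of 12 for RNA-sorting). Above that range lay 1 member after loess and 2 with the brightest probe. Members past the size rule and lower numbered 1 with the 1.5-fold rule and 1 when single probes were counted, both chosen after seeing the data. With the brightest probe of each gene the medians were 0.03 for RNA-sorting, -0.25 for miRNA processing and 0.06 for other RNA-binding, though Dicer1 moved to -0.29, Hnrnpa3 to 0.50 and Hnrnpc to 0.48, and Pcbp2 turned to -0.01. No paired analysis was possible because each fraction has 1 array and the result comes from no test. Dim members (Syncrip, Hnrnpd, Ago1, Dgcr8) are limited by rounding, and Ago3 and Xpo5 by cells left empty.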
